A study of Mus musculus with 24 samples.

Results

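Translation initiation and elongation factors were followed in mouse CGR8 embryonic stem cells (ESCs) in which Rsl24d1, a gene for a factor of large ribosomal subunit assembly, had been targeted by siRNAs. The members were all genes whose symbol starts with Eif1 to Eif5 or with Eef1 or Eef2, except Eef1e1. They numbered 70 of the 54242 gene symbols listed. All 70 were above 0 in at least 1 library, and 67 had a mean log2(TPM + 1) of at least 0.5 and were tested. Eif4e1b, Eef1akmt3 and Eif2c5 fell below that level. TPM is a transcript abundance that is scaled to a common sum in each library and corrected for transcript length, so TPM of different genes can be set side by side. A log2 difference below is always a difference between group means of log2(TPM + 1), and it understates the change of genes near 0.

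The 24 RNA-seq libraries form 8 groups of 3. Cells received a control siRNA (si-CTL) or a pool of siRNAs against Rsl24d1 (si-Rsl24d1). They were collected as ESCs in serum and LIF (day 0) or after 4 days of 10 nM retinoic acid (RA, day 4), and either carried no rescue or expressed ectopic Rsl24d1 from a siRNA-resistant, doxycycline-inducible open reading frame (rescue). The labels give an empty vector for the cells without rescue and RSL24D1_OE for the rescue, and the rescue line is 1 engineered derivative of CGR8. The labels give both 48 h and 72 h between transfection and collection, and poly-A libraries where the study's methods give a total RNA kit. The sources also conflict on the basal medium and on whether LIF was present during RA, which the series text states and the study's methods exclude, so a day effect may or may not include LIF withdrawal. The triplicates are called independent, and a legend of the study calls them biological replicates and names a paired t test for gene signatures. No source used here says that they came from separate cultures. The p-values therefore measure the spread between these libraries, which may be technical. The number of reads is not kept in TPM and the depth of each library is therefore unknown.

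Initiation factors bring the first tRNA, the 40S subunit and the mRNA together. eIF2 carries the initiator tRNA and is recharged with GTP by eIF2B, and 4 kinases that answer to stress can block this recharging. eIF3 is the large scaffold on the 40S subunit. eIF4E binds the cap, eIF4G bridges the cap to the 40S subunit, and the eIF4A helicase unwinds the leader, while 4E-BPs keep eIF4E from eIF4G. eIF1, eIF1A and eIF5 act in start codon choice, eIF5B joins the 60S subunit, and eIF5A helps the ribosome past difficult peptide bonds. In elongation eEF1A delivers tRNAs, eEF1B recharges it, and eEF2 moves the ribosome along the mRNA. ESCs are known for a low protein output that rises with differentiation, which is why the levels of these mRNAs are of interest in both states.

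Several members have close copies in the genome, and the values below depend on how well their reads were told apart. The following aligned stretches of coding sequence, from gencode vM21 transcripts (GRCm38), show 3 such pairs over 60 bases, with the bases that differ in capitals.
Eif4a3: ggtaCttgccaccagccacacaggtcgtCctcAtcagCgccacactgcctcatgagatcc
Eif4a3l1: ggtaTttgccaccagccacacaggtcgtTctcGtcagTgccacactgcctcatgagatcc
Eif4a1: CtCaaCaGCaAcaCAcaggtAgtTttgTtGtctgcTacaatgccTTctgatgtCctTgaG
Eif4a2: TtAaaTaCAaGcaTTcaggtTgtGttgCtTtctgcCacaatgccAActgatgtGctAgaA
Eif2s3x: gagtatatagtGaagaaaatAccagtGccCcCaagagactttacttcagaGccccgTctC
Eif2s3y: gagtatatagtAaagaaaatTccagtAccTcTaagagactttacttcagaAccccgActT
Over these stretches Eif4a3 and its copy Eif4a3l1 differ at 4 bases, Eif2s3x and Eif2s3y at 8 and Eif4a1 and Eif4a2 at 18. Over the whole coding sequence, Eif4a3l1 is identical to Eif4a3 at 96.2% of 1233 bases and Eif4a3l2 at 96.8%. Eif4a1 and Eif4a2 share 78.2% and Eif2s3x and Eif2s3y 86.3%. Eif3j1 and Eif3j2 are identical at 99.7% of 783 aligned bases, and their separate values are uncertain. The annotation holds Eif4a3l1 (as Gm8994, chr6:136327539-136329983, plus strand) and Eif4a3l2 (as Gm5580, chr6:116551141-116552502, plus strand) as protein coding genes.

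In si-CTL cells at day 0 the members covered a wide range of levels. Eef1a1, the tRNA carrier of elongation, was highest at 10810 ± 128 TPM (SD, n = 3). Eif5a followed at 2370 ± 38.2, Eif4a1 at 2329 ± 39.4, Eef1b2 at 1880 ± 73.8, Eef2 at 1705 ± 125, Eef1g at 1330 ± 9.35 and Eif1 at 1226 ± 61.1 TPM. Eif5a and Eif4a1 differed by less than the sum of their SDs. Of the others, 32 members lay between 100 and 1000 TPM, 18 between 10 and 100 TPM and 13 at 10 TPM or less. Together the 70 members took 2.88% to 3.24% of all TPM in the 24 libraries.

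Paralogs differed strongly in level. Eef1a2, the muscle and neuron form of eEF1A, was at 1.22 ± 0.109 TPM against 10810 for Eef1a1. Eif5a2 was at 10.5 ± 1.07 TPM against 2370 for Eif5a, Eif1b at 31.0 ± 1.33 against 1226 for Eif1, and Eif4a2 at 563 ± 6.47 against 2329 for Eif4a1. The X-linked Eif2s3x (chrX:94188707-94212862) and the Y-linked Eif2s3y (chrY:1010543-1028847), which both encode the gamma subunit of eIF2, were at 208 ± 10.2 and 217 ± 9.46 TPM and did not differ beyond their spread. Among the scaffolds Eif4g2, which lacks the eIF4E binding part, was at 664 ± 41.6 TPM, Eif4g1 at 262 ± 29.7 and Eif4g3 at 19.6 ± 1.67. Of the cap-binding proteins Eif4e was at 326 ± 17.7, the translation repressor Eif4e2 at 123 ± 1.03, Eif4e3 at 1.28 ± 0.0979 and the oocyte form Eif4e1b at 0.673 ± 0.157 TPM. Eif4ebp1 was at 436 ± 15.8, Eif4ebp2 at 112 ± 12.8 and Eif4ebp3 at 1.48 ± 0.377 TPM. Of the eIF2 kinases, Eif2ak1 was at 18.1 ± 0.238, Eif2ak2 at 9.85 ± 0.445, Eif2ak3 at 8.94 ± 1.13 and Eif2ak4 at 8.53 ± 0.732 TPM, and Eif2ak3 and Eif2ak4 differed by less than their SDs. Eif1a stood at 171 ± 6.49 TPM and Eif1ax at 244 ± 12.4.

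The targeted transcript was low where the labels say so at day 0. Rsl24d1 was at 148, 140 and 136 TPM in si-CTL cells and at 36.6, 37.9 and 32.7 TPM in si-Rsl24d1 cells without rescue. With rescue it was at 158, 150 and 147 TPM in si-CTL cells and at 103, 96.1 and 122 TPM in si-Rsl24d1 cells, and reads of the ectopic and the endogenous gene are not separated. At day 4 without rescue, si-CTL cells had 95.9, 101 and 96.7 TPM and si-Rsl24d1 cells 89.3, 96.3 and 99.8 TPM. Those 2 groups overlapped, with a log2 difference of -0.04 ± 0.07 (SE, adjusted p = 0.66, limma). A difference in the targeted mRNA was therefore not detectable at day 4 in these libraries.

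The markers of the labelled cell state were present throughout. The summed level of 8 ESC markers (Pou5f1, Sox2, Nanog, Zfp42, Esrrb, Klf4, Dppa5a and Tdgf1) was 4629 to 6043 TPM at day 0 and 6167 to 7210 TPM at day 4, so the day 4 cells still carried ESC transcripts, while the mean log2(TPM + 1) of the list went from 8.03 to 8.51 at day 0 to 7.98 to 8.17 at day 4. In unrescued si-CTL cells the sum was 5574 to 5734 TPM at day 0 and 7026 to 7210 TPM at day 4. The mean log2 there was lower at day 4, at 7.99 to 8.07 against 8.45 to 8.51, so the markers did not move as one. The study reports that many pluripotency markers fell strongly with RA in si-CTL cells. In these lists and the others read, no marker was at 0 in all libraries of a group. At day 4 the 5 fibroblast markers summed to 104 to 276 TPM against 21.5 to 47.0 at day 0, the 6 endoderm markers to 18.5 to 49.2 against 8.20 to 14.6, and the 4 neural markers to 28.0 to 38.6 against 67.5 to 84.0. The 5 RA response markers summed to 35.4 to 54.9 TPM at day 4 and to 14.4 to 18.5 TPM at day 0. A lower level of a factor per cell and a smaller share of cells that express it cannot be told apart in these bulk libraries.

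The first question was which translation factor mRNAs differ when Rsl24d1 is depleted in ESCs. At day 0 without rescue, 34 of the 67 members tested passed an adjusted p below 0.01, against a background of 30.4% of all 16447 genes. Of these, 25 were lower in si-Rsl24d1 cells (background 16.1%) and 9 were higher (background 14.3%). The median log2 difference of the members was -0.10 and that of all genes -0.01. Changes were small: 1 member, Eif4a3l1, moved by over 1.8-fold (background 4.18%). The 3 libraries of one group lay all above or all below those of the other for 47 members (background 51.1%). Marker levels moved with this comparison. Without overlap between the groups, the ESC markers summed to 5574 to 5734 TPM in si-CTL cells and to 4629 to 4648 TPM in si-Rsl24d1 cells, the fibroblast markers to 37.5 to 47.0 and 27.7 to 29.1 TPM, the neural markers to 80.1 to 84.0 and 73.1 to 74.8 TPM, and the RA response markers to 14.4 to 15.9 and 16.7 to 17.5 TPM. The part of these shifts in the differences of the members was not tested. The count of 34 became 22 without si-Rsl24d1 replicate 3, with 14 lower and 8 higher.

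**Figure D1:**
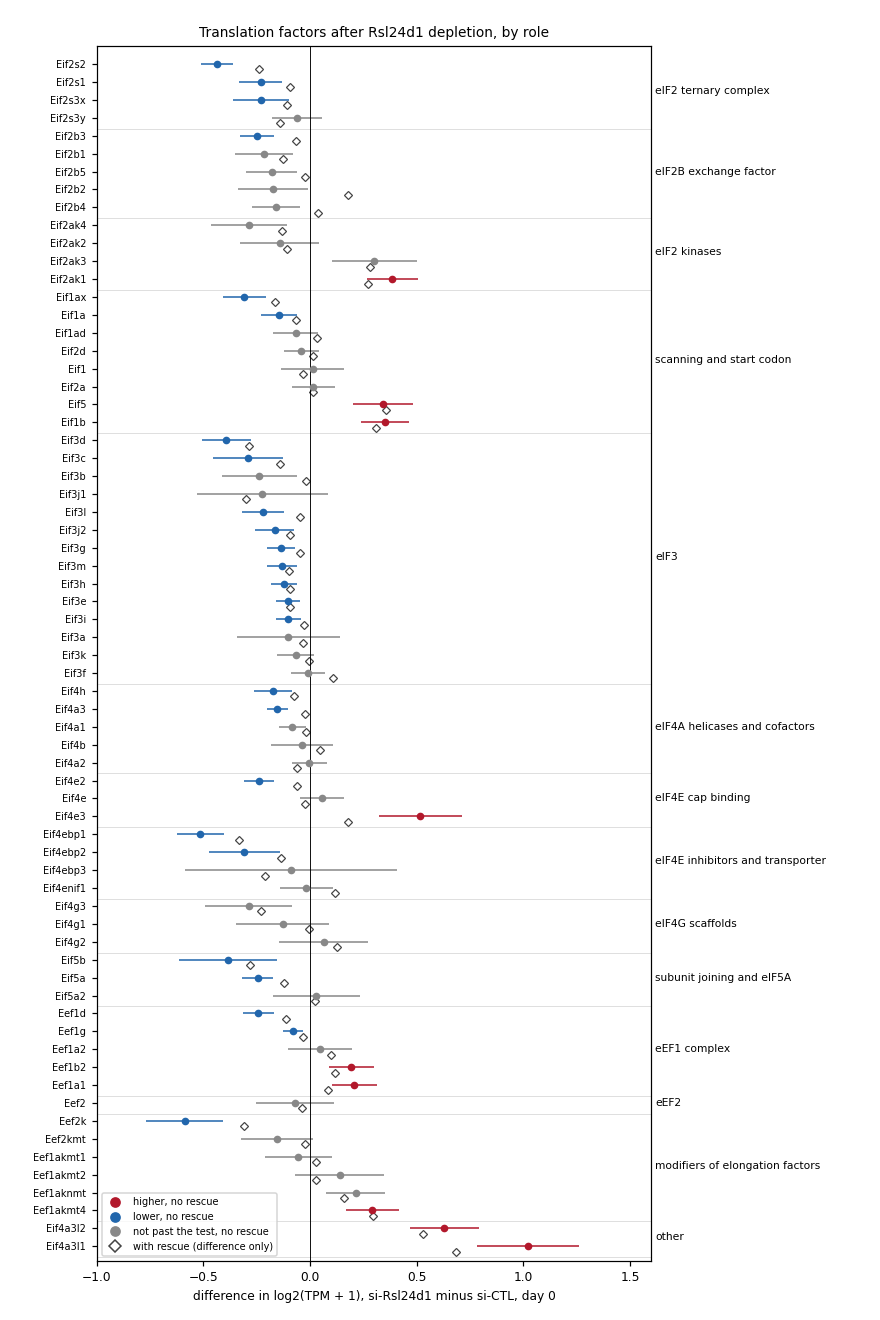
Difference in log2(TPM + 1) between si-Rsl24d1 and si-CTL cells at day 0 for 67 translation factor genes, grouped by role. Points with 95% confidence intervals are cells without rescue (red higher, blue lower, grey not past the test), and diamonds are the same difference between cells with rescue. The 9 called eIF3 genes all lie left of 0, and Eif4a3l1 at 1.02 lies farthest to the right.

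The eIF2 complex was lower in 3 of its 4 members and higher in none. Eif2s2, the beta subunit (chr2:154871410-154892935, minus strand), was at 407, 396 and 405 TPM in si-CTL cells and at 306, 301 and 285 TPM in si-Rsl24d1 cells. The 2 groups were far apart, and the log2 difference was -0.44 ± 0.035 (SE, adjusted p = 4.4e-09). Eif2s3x went from 220, 203 and 202 TPM to 180, 181 and 170 TPM, again without overlap (-0.23 ± 0.061, adjusted p = 0.0049). Eif2s1, the alpha subunit that the stress kinases phosphorylate, also fell, by 0.23. The Y-linked partner of Eif2s3x, Eif2s3y, differed by -0.06 and did not pass.

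Of the 5 genes of the exchange factor eIF2B, 1 was lower. Eif2b3 was at 42.4, 43.9 and 42.8 TPM in si-CTL cells and at 35.0, 37.4 and 35.9 TPM in si-Rsl24d1 cells (-0.25 ± 0.038, adjusted p = 2.5e-05). The other 4 had differences of -0.16 to -0.21 that did not pass with the deposited scaling. Of these, only Eif2b5 passed after median of ratios scaling (-0.16, adjusted p = 6.2e-05, limma) and after an adjustment for transcript length (-0.16, adjusted p = 0.00041, limma). Of the kinases that act on eIF2, Eif2ak1, the heme-regulated kinase HRI, was higher. It was at 17.9, 18.2 and 18.3 TPM in si-CTL cells and at 24.2, 24.2 and 23.7 TPM in si-Rsl24d1 cells, a rise of 0.39 ± 0.057 (adjusted p = 1.8e-05). Eif2ak3, the kinase PERK of the endoplasmic reticulum, had a difference of 0.30 and Eif2ak4, the amino acid sensor GCN2, of -0.28. Neither passed with the deposited scaling. Both passed after median of ratios scaling (0.32 and -0.26, adjusted p = 0.001 for each, limma). They also passed after an adjustment for transcript length (0.29 and -0.31, adjusted p = 0.00057 and 1.1e-05, limma).

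Genes of scanning and start codon choice moved both ways, with 2 of 8 higher and 2 lower. Eif5, the GTPase activator of eIF2, was at 253, 224 and 235 TPM in si-CTL cells and at 309, 305 and 286 TPM in si-Rsl24d1 cells (0.34 ± 0.067, adjusted p = 0.00034). Eif1b (chr9:120492232-120495330, plus strand), the minor paralog of Eif1, was at 29.7, 30.8 and 32.4 TPM and at 39.2, 39.5 and 40.5 TPM (0.35 ± 0.053, adjusted p = 2.1e-05). In both cases every depleted library was above every control library. Eif1 itself differed by 0.01. The lower pair, Eif1ax and Eif1a, encode forms of eIF1A. Eif1ax went from 231, 255 and 245 TPM to 191, 194 and 205 TPM (-0.31 ± 0.047, adjusted p = 2.6e-05), and Eif1a fell by 0.14.

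eIF3 was the role with the most lower members, 9 of 14, and none was higher. Eif3d, a subunit that can itself bind the cap, was at 264, 256 and 241 TPM in si-CTL cells and at 196, 194 and 188 TPM in si-Rsl24d1 cells. Its groups did not overlap, and its log2 difference of -0.39 ± 0.054 (adjusted p = 7.3e-06) was the deepest of the complex. Eif3c fell from 232, 216 and 205 TPM to 181, 179 and 173 TPM (-0.29 ± 0.077, adjusted p = 0.005). Eif3l and Eif3j2 were lower by 0.22 and 0.17. Eif3e, Eif3g, Eif3h, Eif3i and Eif3m were lower by only 0.10 to 0.14, and these 5 no longer passed after median of ratios scaling or an adjustment for transcript length. Eif3a, Eif3b, Eif3f, Eif3j1 and Eif3k did not pass, with differences between -0.24 and -0.01. Of these, only Eif3b passed after median of ratios scaling (-0.215, adjusted p = 0.0022, limma) and after the length adjustment (-0.229, adjusted p = 0.001, limma).

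Within the cap-binding group the members divided. Eif4e differed by 0.06 and did not pass. Eif4e2, which competes for the cap as a repressor, was at 124, 123 and 122 TPM in si-CTL cells and at 106, 104 and 101 TPM in si-Rsl24d1 cells (-0.24 ± 0.034, adjusted p = 9.8e-06). The little expressed Eif4e3 rose from 1.33, 1.35 and 1.17 TPM to 2.55, 1.91 and 2.36 TPM (0.52 ± 0.092, adjusted p = 0.00014). Among the inhibitors of eIF4E, Eif4ebp1 went from 418, 441 and 449 TPM to 303, 296 and 317 TPM. Every depleted library was below every control library, and the log2 difference was -0.51 ± 0.053 (adjusted p = 1.6e-07). Eif4ebp2 was lower too, at 92.1, 90.0 and 87.6 TPM against 127, 106 and 103 TPM (-0.31 ± 0.078, adjusted p = 0.0034). With the deposited scaling no eIF4G scaffold passed, with values of -0.13 for Eif4g1, 0.06 for Eif4g2 and -0.29 for Eif4g3. Eif4g3 was lower after median of ratios scaling (-0.27, adjusted p = 0.0033, limma) and length adjustment (-0.33, adjusted p = 2.5e-06), and Eif4g1 after the latter (-0.16, adjusted p = 0.004).

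Of the eIF4A group, 2 of 5 were lower by small amounts. Eif4h, a cofactor of the helicase, went from 292, 272 and 270 TPM to 247, 250 and 241 TPM (-0.17 ± 0.042, adjusted p = 0.0023). Eif4a3, the helicase of the exon junction complex rather than of initiation, went from 243, 237 and 246 TPM to 218, 218 and 218 TPM (-0.15 ± 0.023, adjusted p = 2.3e-05). Its near copies moved the other way at a much lower level. Eif4a3l1 was at 1.27, 0.962 and 1.05 TPM in si-CTL cells and at 3.16, 3.21 and 3.37 TPM in si-Rsl24d1 cells (1.02 ± 0.113, adjusted p = 4.3e-07). Eif4a3l2 was at 1.10, 0.854 and 0.981 TPM and at 1.94, 2.12 and 2.13 TPM (0.63 ± 0.076, adjusted p = 1.4e-06). Whether part of their level comes from reads of Eif4a3 was not tested.

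Subunit joining and eIF5A were lower in 2 of 3 genes. Eif5b was at 67.6, 59.4 and 59.8 TPM in si-CTL cells and at 51.0, 46.1 and 45.3 TPM in si-Rsl24d1 cells (-0.38 ± 0.108, adjusted p = 0.0075). The call of Eif5b was lost in 5 of the 6 fits with 1 library left out, all but that without si-Rsl24d1 replicate 1, with differences from -0.44 to -0.32 in the 6. Eif5a (chr11:69916714-69921958, minus strand) went from 2337, 2362 and 2412 TPM to 2008, 2003 and 1982 TPM (-0.25 ± 0.035, adjusted p = 9.1e-06). Its paralog Eif5a2 differed by 0.03.

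The elongation factors divided as well. Eef1a1 was at 10790, 10940 and 10690 TPM in si-CTL cells and at 12630, 12490 and 12290 TPM in si-Rsl24d1 cells, a rise of 0.21 ± 0.05 (adjusted p = 0.0023). Eef1b2, a subunit of its exchange factor, rose by 0.19. The other exchange factor subunits were lower, Eef1d from 494, 504 and 529 TPM to 427, 430 and 432 TPM (-0.24 ± 0.034, adjusted p = 9.4e-06) and Eef1g by 0.08. Eef2 differed by -0.07 and did not pass. The inhibitory kinase of eEF2 fell: Eef2k was at 7.84, 8.38 and 7.65 TPM in si-CTL cells and at 4.90, 5.27 and 4.71 TPM in si-Rsl24d1 cells (-0.59 ± 0.085, adjusted p = 1.2e-05). Eef1akmt4, whose product methylates eEF1A, rose from 15.1, 14.2 and 14.0 TPM to 17.2, 17.9 and 18.6 TPM (0.29 ± 0.058, adjusted p = 0.00046). Many elongation factor mRNAs belong to the TOP class, which starts with a run of pyrimidines and is regulated with the ribosomal proteins. Of 9 members of that class, 2 were higher (Eef1a1 and Eef1b2), 4 were lower (Eef1d, Eef1g, Eif3e and Eif3h) and 3 did not pass, with a median of -0.07. Of these calls, those of Eef1b2, Eef1g, Eif3e and Eif3h were lost under median of ratios scaling, and those of Eef1g, Eif3e and Eif3h after the length adjustment.

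**Figure D2:**
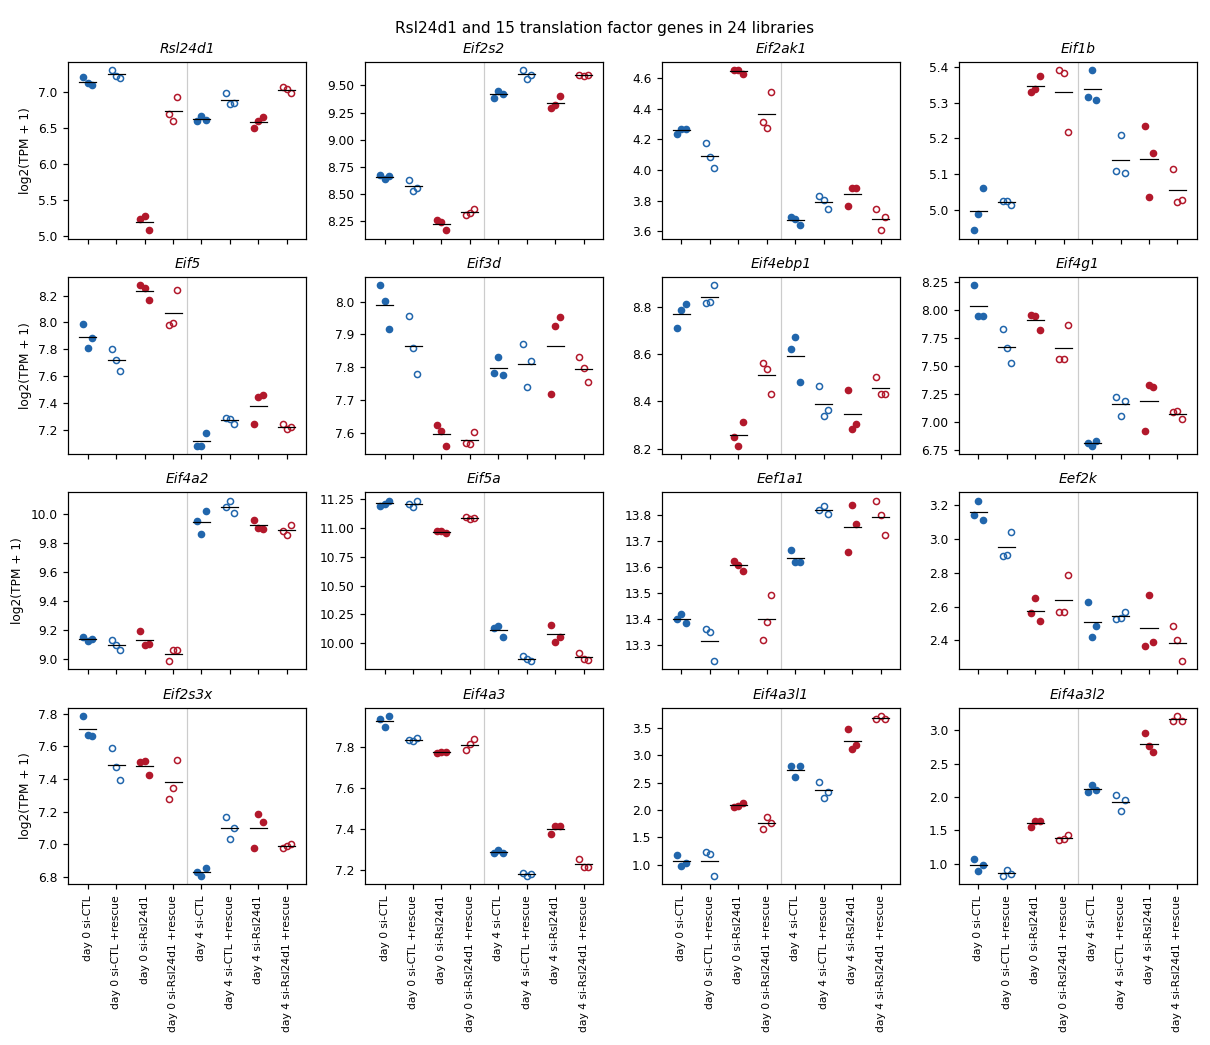
Log2(TPM + 1) of Rsl24d1 and 15 members in each of the 24 libraries (blue si-CTL, red si-Rsl24d1, open circles with rescue), with a line at each group mean and the vertical axes fitted to each gene. Rsl24d1 is low in 3 libraries without rescue at day 0, Eif4ebp1 and Eif3d are lower there than in si-CTL libraries, and Eif5a and Eif4a2 separate day 4 from day 0 in all 4 conditions.

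Rescue of Rsl24d1 was read next at day 0. Between si-Rsl24d1 and si-CTL cells that both carried the rescue, 9 of 67 members passed (background 13.7%), 6 higher (background 8.1%) and 3 lower (background 5.64%). Those higher were Eif4a3l1 by 0.69, Eif4a3l2 by 0.53, Eif5 by 0.35, Eif1b by 0.31, Eef1akmt4 by 0.30 and Eif2ak1 by 0.27. Those lower were Eif4ebp1 by 0.33, Eif3d by 0.29 and Eif2s2 by 0.24. With median of ratios scaling the split was 7 higher and 6 lower, and after adjustment for transcript length 5 higher and 13 lower. Of all genes called after median of ratios scaling 55.3% were higher. Rsl24d1 itself remained 0.50 lower in these cells.

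All 34 members called without rescue had the same sign of difference with rescue, and the difference was smaller for 32 of them. The matching shares among all genes called without rescue were not counted. Since those 34 were picked by their difference without rescue, a smaller value in other libraries follows in part from that choice. The 2 exceptions were Eif5 (0.34 without and 0.35 with rescue) and Eef1akmt4 (0.29 and 0.30). Tested directly, the siRNA effect did not differ between cells without and with rescue for any member (0 of 67 by limma at an adjusted p below 0.01, background 2.09% by the same rule). At an unadjusted p below 0.05 there were 14. For Eif4ebp1 the libraries with rescue were at 449, 451 and 474 TPM in si-CTL cells and at 378, 370 and 344 TPM in si-Rsl24d1 cells, against 303 in the median depleted library without rescue. Eef2k stood at 6.47, 6.50 and 7.25 TPM and at 4.92, 4.92 and 5.90 TPM with rescue, a difference of -0.31 that did not pass (adjusted p = 0.011).

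Within si-Rsl24d1 cells at day 0, rescued cells differed from unrescued ones in 6 of 67 members (background 15.3%), 3 higher (background 3.06%) and 3 lower (background 12.2%). Higher were Eif4ebp1 by 0.25, Eif2b3 by 0.18 and Eef1d by 0.14. Lower were Eif4e3 by 0.39, Eif2ak1 by 0.28 and Eef1a1 by 0.21. This comparison shares the unrescued si-Rsl24d1 libraries with the first one, in which the same genes had differences of -0.51, -0.25, -0.24, 0.52, 0.39 and 0.21. The count rests on single libraries. It was 2, 3 and 3 without unrescued si-Rsl24d1 replicates 1, 2 and 3, 1 without rescued si-Rsl24d1 replicate 1, 0 without replicate 2 and 14 without replicate 3. The median of all genes was -0.11 in this comparison, and median of ratios scaling, which brought it to -0.02, gave 15 higher and 1 lower. Of all genes called after that scaling 46.4% were higher, against 20.1% as deposited. The same scaling took the calls of Eef1a1 and Eif4e3, and adjustment for transcript length those of Eif2ak1 and Eif4e3. Protein coding genes had medians from 0.03 in the shortest of 4 bins of transcript length to -0.24 in the longest. In si-CTL cells the rescue alone gave 0 of 67 members by limma at an adjusted p below 0.01 (background 0.0122% by the same rule), with 35 at an unadjusted p below 0.05 and 0 under median of ratios scaling as well.

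The second question was how the factors change with RA. In si-CTL cells without rescue, 50 of 67 members passed between day 4 and day 0 (background 60.9%), 40 lower at day 4 (background 36.7%) and 10 higher (background 24.1%). The median of the members was -0.26 and that of all genes -0.10. Of the members, 7 fell by over 1.8-fold (background 8.24%) and 2 rose (background 6.77%). Median of ratios scaling, which moved the median of all genes by 0.14 to 0.04, gave 30 lower and 15 higher. Of all genes called after that scaling 53.2% were higher, against 39.7% as deposited. Protein coding genes with long transcripts were lower in this comparison than short ones, with medians from 0.05 in the shortest of 4 equal bins (up to 1933 bases) to -0.26 in the longest (over 4573 bases). For the members the medians were -0.11 and -0.49 in these bins, of 20 and 12 genes. The part of transcript length in the differences was not tested beyond the adjustment, which left 38 lower and 12 higher of 64 with a known length.

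Every role had a lower member except cap binding, eEF2 and the near copies of Eif4a3, with 7 of 8 lower in scanning, 4 of 5 in eIF2B, 4 of 5 in the eIF4A group, 3 of 4 among the eIF2 kinases, 3 of 4 among the eIF4E inhibitors, 2 of 3 scaffolds, 2 of 3 in subunit joining and eIF5A, and 9 of 14 in eIF3. Median of ratios scaling took 10 of these calls, Eif1, Eif1a, Eif2ak3, Eif2ak4, Eif3d, Eif3f, Eif3h, Eif3i, Eif4a1 and Eif4ebp1. Eif4g1 (chr16:20668313-20692884, plus strand), the main scaffold, fell from 296, 245 and 245 TPM at day 0 to 111, 110 and 113 TPM at day 4 (-1.22 ± 0.103, adjusted p = 2.7e-09). Eif3b, a core subunit of eIF3, went from 243, 218 and 213 TPM to 101, 100 and 98.5 TPM (-1.16 ± 0.084, adjusted p = 2.9e-10). Eif5a fell from 2337, 2362 and 2412 TPM to 1121, 1137 and 1062 TPM (-1.10 ± 0.035, adjusted p = 1.1e-15). None of these genes had overlapping groups, and the fall of Eif5a was the largest in TPM of all members.

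The remaining falls over 1.8-fold were spread over other roles. Eif4ebp2 went from 127, 106 and 103 TPM to 52.6, 50.0 and 51.5 TPM (-1.10 ± 0.078, adjusted p = 2e-10), and Eif2s3x from 220, 203 and 202 TPM to 113, 111 and 115 TPM (-0.88 ± 0.061, adjusted p = 1.7e-10). Eif2s3y, its Y-linked partner, differed by only -0.04 and did not pass, so the X-linked share of this pair was lower at day 4. Eef1akmt1, a lysine methyltransferase of eEF1A, went from 51.0, 53.3 and 59.2 TPM to 22.6, 26.6 and 24.7 TPM (-1.11 ± 0.074, adjusted p = 8e-11). Eef1a2 went from 1.13, 1.18 and 1.34 TPM to 0.0504, 0.0935 and 0.141 TPM (-1.02 ± 0.072, adjusted p = 1.8e-10).

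Smaller falls led the other roles. Eif5 dropped by 0.78 from 253, 224 and 235 TPM to 134, 134 and 144 TPM, Eif2b2 by 0.68 from 62.4, 56.9 and 56.8 TPM to 35.2, 35.0 and 38.3 TPM, and Eif2ak1 by 0.59 from 17.9, 18.2 and 18.3 TPM to 11.9, 11.8 and 11.5 TPM. Eif4a3 fell by 0.64, from 243, 237 and 246 TPM to 154, 156 and 154 TPM. Eif4e did not pass, at 326 ± 17.7 and 320 ± 11.5 TPM, and Eif4a1 fell by 0.16, a call that was lost with a change of sign under median of ratios scaling.

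A smaller set rose with RA. Eif2s2 was at 407, 396 and 405 TPM at day 0 and at 669, 697 and 685 TPM at day 4 (0.76 ± 0.035, adjusted p = 2.9e-13), while the other eIF2 subunit genes fell or did not pass. Eif4a2, the helicase paralog that is favoured in differentiated tissues, went from 569, 556 and 562 TPM to 993, 933 and 1039 TPM (0.81 ± 0.039, adjusted p = 5.9e-13). The levels of Eif4a1 and Eif4a2 thus drew together, at 2085 ± 16.1 and 988 ± 53.4 TPM. Eif2b3 rose from 42.4, 43.9 and 42.8 TPM to 64.0, 66.4 and 66.0 TPM (0.59 ± 0.038, adjusted p = 4.2e-11) against the fall of the 4 other eIF2B genes.

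Elongation genes and rare forms were among the risers too. Eef2kmt, whose product methylates eEF2, went from 13.5, 12.1 and 12.1 TPM to 23.3, 23.1 and 21.9 TPM (0.81 ± 0.079, adjusted p = 2.1e-08). Eef1a1 rose by 0.23 to 13000, 12570 and 12600 TPM, Eif1b by 0.34 and Eif3e by 0.11. Eif4e3 rose from 1.33, 1.35 and 1.17 TPM to 3.03, 2.58 and 3.13 TPM (0.78 ± 0.092, adjusted p = 3.5e-07). The copies of Eif4a3 rose over 1.8-fold. Eif4a3l1 went from 1.27, 0.962 and 1.05 TPM to 5.97, 5.03 and 5.99 TPM (1.67 ± 0.113, adjusted p = 1e-10) and Eif4a3l2 from 1.10, 0.854 and 0.981 TPM to 3.23, 3.55 and 3.30 TPM (1.14 ± 0.076, adjusted p = 8.6e-11).

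**Figure D3:**
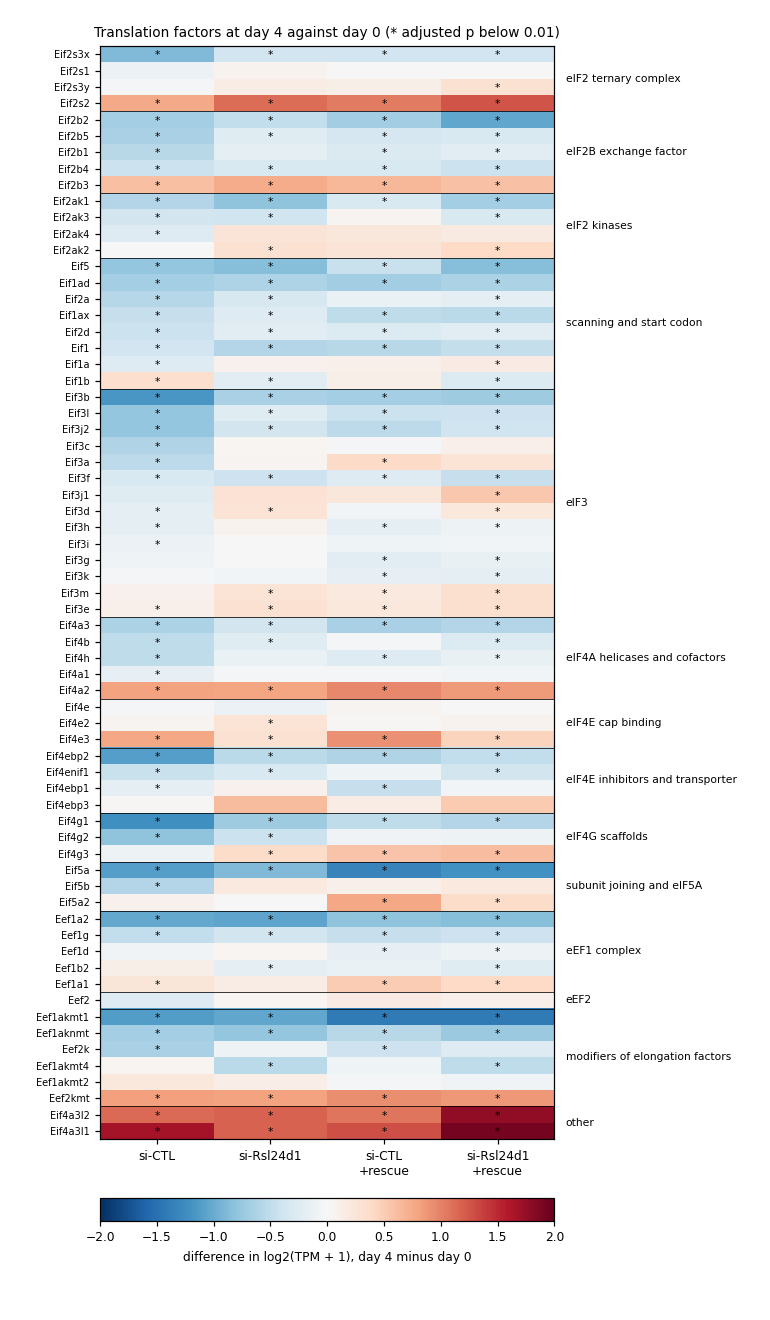
Difference in log2(TPM + 1) between day 4 and day 0 for 67 translation factor genes in 4 conditions, by role (blue lower at day 4, red higher, asterisks mark an adjusted p below 0.01). Eif5a, Eef1akmt1 and Eif3b are blue and Eif2s2, Eif4a2 and the 2 copies of Eif4a3 red in all 4 columns, while Eif3a and Eif5b are blue only in the first.

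The same comparison was available in 3 further conditions that share no library with the first. In si-Rsl24d1 cells without rescue 43 of 67 members passed (background 55.8%), 30 lower and 13 higher. In rescued si-CTL cells 43 passed (background 59.2%), again 30 lower and 13 higher, and in rescued si-Rsl24d1 cells 52 (background 58.1%), 35 lower and 17 higher. The background split in these conditions was 26.4% lower and 29.4% higher, 22.4% lower and 36.8% higher, and 25.8% lower and 32.4% higher. Lower calls thus outnumbered higher ones among the members in conditions where they did not among all genes.

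Altogether 22 members were lower at day 4 in all 4 conditions and 8 were higher in all 4. The share of all genes called the same way in all 4 was not counted, so these counts have no background. The 22 were Eef1a2, Eef1akmt1, Eef1aknmt, Eef1g, Eif1, Eif1ad, Eif1ax, Eif2ak1, Eif2b2, Eif2b4, Eif2b5, Eif2d, Eif2s3x, Eif3b, Eif3f, Eif3j2, Eif3l, Eif4a3, Eif4ebp2, Eif4g1, Eif5 and Eif5a. Median of ratios scaling kept 20 of them (without Eif1 and Eif3f) and added 4, for 24. The 8 were Eef2kmt, Eif2b3, Eif2s2, Eif3e, Eif4a2, Eif4a3l1, Eif4a3l2 and Eif4e3, and the same scaling kept 7, without Eif3e. Day 4 Eif5a libraries were between 920 and 1144 TPM in all 12 cases and day 0 ones between 1982 and 2412 TPM. Day 4 Eif4a2 libraries were at 928 to 1093 TPM and day 0 ones at 507 to 586 TPM.

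Some members moved farther in the other conditions, and those values are descriptions since the differences between conditions were tested only for the 2 unrescued ones. Eif2s2 rose by 1.12 in si-Rsl24d1 cells, 1.03 in rescued si-CTL cells and 1.26 in rescued si-Rsl24d1 cells. Eif5 fell by 0.85 in both si-Rsl24d1 conditions, and Eif2b2 by 1.04 in rescued si-Rsl24d1 cells. Other falls were less deep there. In the order given for Eif2s2, the lowest scaffold values were -0.71, -0.51 and -0.59, against -1.22 for Eif4g1 in unrescued si-CTL cells. The lowest eIF3 values were -0.64, -0.68 and -0.71 (Eif3b -1.16). In the eIF2 complex they were -0.38, -0.38 and -0.39 (Eif2s3x -0.88). Among the eIF4E inhibitors they were -0.545, -0.595 and -0.497 (Eif4ebp2 -1.10). Those that passed in opposite directions in different conditions were 4, Eif1a, Eif1b, Eif3a and Eif3d. Eef1akmt2, Eef2, Eif2s1, Eif4e and Eif4ebp3 passed in none of the 4.

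The siRNA effect at day 4 was the next comparison. Without rescue 23 of 67 members passed (background 30.9%), 19 higher in si-Rsl24d1 cells (background 24.9%) and 4 lower (background 6.04%). The direction depended on the scaling. The median of all genes was 0.13 and that of the members 0.12, and median of ratios scaling, which set the median of all genes at 0.01, gave 7 higher and 15 lower. Of all genes called after that scaling 51.4% were higher, against 80.5% as deposited. Adjustment for transcript length gave 12 higher and 13 lower of 64. A fit of these 2 groups alone called 2 members. The count of 23 was 15 without si-CTL replicate 1, and 13 without si-Rsl24d1 replicate 2 and 13 without replicate 3. Marker sums moved with this comparison, without overlap between the groups. Fibroblast markers were at 104 to 113 TPM in si-CTL cells and 206 to 276 TPM in si-Rsl24d1 cells. In the same order endoderm markers were at 18.5 to 24.2 and 37.4 to 49.2 TPM. RA response markers were at 36.2 to 39.4 and 48.6 to 54.9 TPM, and neural markers at 28.8 to 30.1 and 34 to 38.6 TPM. ESC markers were at 7026 to 7210 and 6167 to 6975 TPM. The part of these shifts in the differences was not tested.

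Of the 23 members, 12 were no longer called after median of ratios scaling and 8 of the 21 with a length after the length adjustment. Eif4a3l2 was at 3.23, 3.55 and 3.30 TPM in si-CTL cells and at 6.76, 5.77 and 5.39 TPM in si-Rsl24d1 cells (0.67 ± 0.076, adjusted p = 1.9e-06). Eif4ebp1 remained lower, at 348, 311 and 315 TPM against 393, 406 and 357 TPM (-0.25 ± 0.053, adjusted p = 0.0011). Eif5 remained higher, by 0.27, but not after median of ratios scaling or length adjustment. With rescue at day 4, 3 of 67 passed (background 5.87%), 2 higher (background 2.33%) and 1 lower (background 3.53%). Eif4a3l1 was at 11.6, 12.2 and 11.7 TPM in si-Rsl24d1 cells against 4.68, 3.68 and 4.04 TPM in si-CTL cells (1.32), Eif4a3l2 at 7.79, 8.30 and 7.80 TPM against 3.10, 2.46 and 2.86 TPM (1.24), and Eif4a2 was lower by 0.16. The call of Eif4a2 was lost under median of ratios scaling and after the length adjustment. The copies of Eif4a3 were called higher in si-Rsl24d1 cells on both days, without and with rescue, and their groups did not overlap. For Eif4a3l1 at day 4 without rescue the difference of 0.53 (adjusted p = 0.0011) was 0.39 after median of ratios scaling, where it did not pass (adjusted p = 0.011).

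The siRNA effect was compared between the 2 days directly. Without rescue the siRNA effect differed between day 4 and day 0 for 32 of 67 members (background 30.9%), 28 with a higher effect at day 4 (background 22.1%) and 4 with a lower one (background 8.83%). Median of ratios scaling gave 14 and 9, and length adjustment 22 and 8 of 64. Of all genes called after median of ratios scaling 50.4% had a higher effect at day 4. Among all protein coding genes the median interaction rose from 0.00 in the bin of shortest transcripts to 0.31 in the longest, and among the members from 0.13 to 0.51, as the plot of medians by transcript length shows. The part of transcript length in single members was not tested beyond the adjustment.

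**Figure D4:**
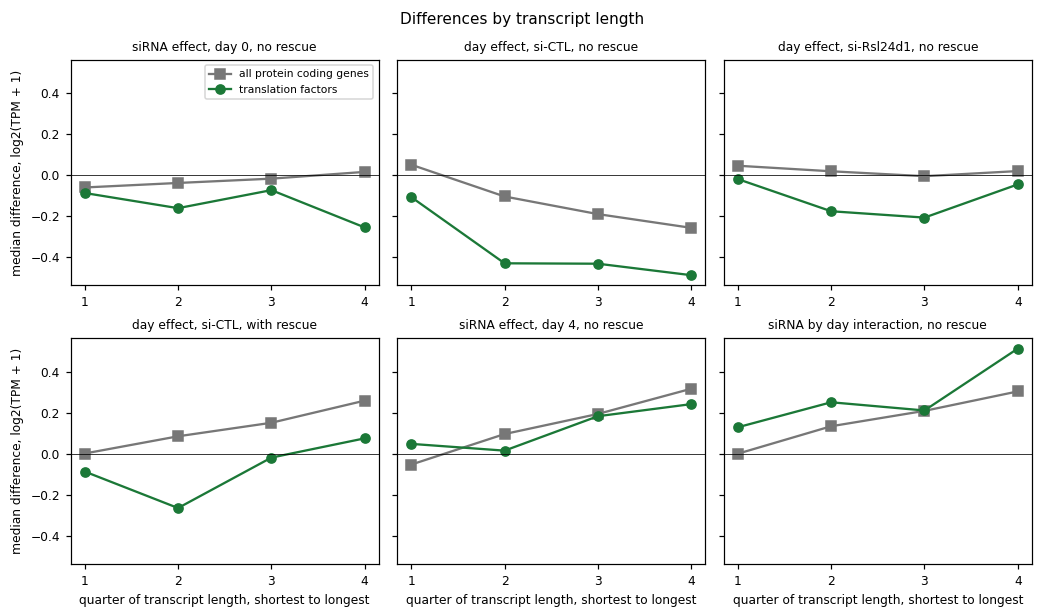
Median difference in log2(TPM + 1) by 4 bins of transcript length for all protein coding genes tested (grey squares) and for translation factors (green circles, 12 to 20 genes per bin) in 6 comparisons. The grey line falls from 0.05 to -0.26 in si-CTL cells between days, is nearly level for the siRNA effect at day 0, and rises from -0.05 to 0.32 for the siRNA effect at day 4.

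Eif5b had the largest interaction. It was lower after depletion at day 0, and at day 4 it stood at 46.5, 60.9 and 57.4 TPM in si-Rsl24d1 cells against 39.1, 38.1 and 45.9 TPM in si-CTL cells (interaction 0.79 ± 0.153, adjusted p = 0.00039). Eif3c went the same way, at 159, 202 and 192 TPM against 142, 144 and 143 TPM at day 4 (0.64 ± 0.109, adjusted p = 0.00011). Eif3a, Eif4ebp2 and Eef2k had interactions of 0.56, 0.56 and 0.55, of which Eef2k no longer passed after adjustment for transcript length (0.27) and Eif3a after median of ratios scaling (0.38). The call of Eif3a was also lost in 9 of the 12 fits with 1 library left out.

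The opposite pattern was seen in 4 members. Eif1b was higher after depletion at day 0 and lower at day 4, where it was at 36.6, 31.8 and 34.8 TPM against 38.8, 41.0 and 38.6 TPM (interaction -0.55 ± 0.075, adjusted p = 1.1e-05). Eef1akmt4 likewise went from higher at day 0 to 12.4, 11.2 and 12.4 TPM against 14.3, 16.3 and 13.9 TPM (-0.57 ± 0.083, adjusted p = 1.8e-05). Eif4e3 (-0.48) and Eef1b2 (-0.28) were higher at day 0 and did not pass at day 4. These 4 kept an adjusted p below 0.01 under both the scaling and the length adjustment. The call of Eif4e3, however, was lost in 7 of the 12 fits with 1 library left out.

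Other regulators of translation, on a list of 42 genes all tested, were read in the same comparisons. At day 0, 13 of 42 passed after depletion (31.0%, background 30.4%), 3 higher and 10 lower (background 14.3% and 16.1%), so the share called was near that of all genes. Their median was -0.09 and that of all genes -0.01. Atf4, the transcription factor whose translation rises when eIF2 is phosphorylated, was lower by 0.80. Pabpc4, a poly(A)-binding protein, and Ppp1r15b, which directs a phosphatase to eIF2, were each lower by 0.57. Higher were Pdcd4, an inhibitor of eIF4A, by 0.55, Tpt1 by 0.18 and Rack1, a protein of the 40S subunit, by 0.16. Between days in si-CTL cells 31 of 42 passed (background 60.9%), 27 lower (background 36.7%) and 4 higher (background 24.1%), with a median of -0.43 against -0.10 for all genes. The largest falls were Ppp1r15a by 1.09, Ppp1r15b by 1.06 and Impact by 1.00, and the largest rises Pdcd4 by 0.84, Paip2 by 0.41 and Paip1 by 0.30.

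Promoters were read for what the members might share in sequence. RefSeq (GRCm38.p6) gave windows from 250 bases before to 50 bases after the start for 54 of the 70 members, 69 windows in all. The E-box CACGTG, which reads the same on both strands and is bound by MYC and related factors, was present in 14 of these 54 genes (25.9%) and in 8.09% of all 27025 genes with such windows. A few of them are shown, chosen because their values are given above, over 36 bases with the E-box in capitals.
Eif5a: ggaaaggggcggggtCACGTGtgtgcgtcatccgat
Eif4g1: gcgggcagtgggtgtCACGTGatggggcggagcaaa
Eef2k: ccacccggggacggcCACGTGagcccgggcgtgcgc
Eif1b: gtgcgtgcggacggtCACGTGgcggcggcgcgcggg
They lie at chr11:69921440-69921475 (minus strand), chr16:20672658-20672693 (plus), chr7:120842785-120842820 (plus) and chr9:120492567-120492602 (plus). Between days in si-CTL cells these genes did not move as one: Eif5a and Eif4g1 fell by 1.10 and 1.22, Eef2k by 0.65, and Eif1b rose by 0.34. The 14 genes with an E-box had a median of -0.28 in that comparison and the 39 tested genes without one -0.43. After depletion at day 0 the medians were -0.07 and -0.15. The letters TGATGNAAT, read on both strands as a form of the element that ATF4 binds, were in none of the 69 member windows and in 0.96% of all windows. With so low a share over all windows, none in 69 does not set the members apart. Eif4ebp1 had no window and could not be read for these letters. A run of 5 or more pyrimidines at the start was in 4 of 69 (5.8%) and in 4.44% of all windows. Of the TOP class members, Eef1d, Eef1g, Eif3e and Eif3h had no window, so this share covers only a part of that class.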

How the data were processed

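The authors quantified reads per gene with Salmon (STAR 2.7.8a, Salmon 1.4.0 and GRCh38 in the submitters' processing notes, another Salmon version and a mouse index in the study's methods) and deposited log2(TPM + 1) in 1 table, so log2 values with 1 added to the TPM were used as deposited, with no count test. TPM summed to 1000000 in every library. No 2 libraries were identical (highest correlation 0.99116). Groups were taken from the sample titles.

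Genes with a mean of at least 0.5 were fitted with limma 3.58.1 in R 4.3.3 (8 group means, trended empirical Bayes, two-sided), with Benjamini-Hochberg adjustment over all 16447 genes. A call is an adjusted p below 0.01, and a second rule adds a change over 1.8-fold (0.848 on the log2 scale). The fit was tested on simulated data. An exact permutation of 3 against 3 libraries cannot go below a p of 0.1 and was not used. No replicate block was used, as the study's methods name none. Libraries with the same replicate number did not deviate together (mean correlation -0.0173 over 84 pairs, -0.223 to 0.169).

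The genes named with full values are Rsl24d1, the largest rise and fall of each role after depletion and with RA, members past 1.8-fold in any comparison, the largest interactions and close paralogs, with up to 3 listed regulators in each direction. The members, roles and lists were chosen with earlier results of these data known. Alternatives were another constant in the logarithm (0.1 or 2), all genes kept, a stricter filter (1.5), only the groups compared, a replicate block, median of ratios scaling, an adjusted p below 0.05, each library left out and, chosen after seeing the data, a lowess adjustment of each library for transcript length. Coordinates and lengths are those of gencode vM21 (GRCm38), which names 67 of the 70 members, and promoters those of RefSeq, each matched by symbol.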

Additional observations from a re-analysis of the deposited data

Results flagged for a closer look

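The effect of si-Rsl24d1 without rescue differed between day 4 and day 0 for 32 of 67 members by the interaction test, and 9 of these were picked out by size. The interaction (effect at day 4 minus effect at day 0, log2) was 0.79 for Eif5b, 0.64 for Eif3c, 0.56 for Eif3a, 0.56 for Eif4ebp2 and 0.55 for Eef2k. It was -0.57 for Eef1akmt4, -0.55 for Eif1b, -0.48 for Eif4e3 and -0.28 for Eef1b2. After median of ratios scaling the same 9 were at 0.61, 0.46, 0.38, 0.38, 0.40, -0.74, -0.72, -0.60 and -0.46, and after adjustment for transcript length at 0.49, 0.48, 0.33, 0.30, 0.27, -0.61, -0.49, -0.60 and -0.36, so none changed direction under these settings. Groups of 3 libraries are too small for a test of single outlying libraries.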

How the results depend on the processing

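Depth is not known from TPM, and 3 libraries per group set the precision. Members with small differences are lost first when fewer libraries or another scaling are used.

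For the siRNA effect at day 0 without rescue, 22 to 31 of 67 members passed with 1 library left out. With rescue the count of 9 was 18 at an adjusted p below 0.05, 18 after the transcript length adjustment and 2 with only the groups compared. The rescue effect in si-Rsl24d1 cells (6) was 24 at an adjusted p below 0.05, 3 without a filter, 16 after median of ratios scaling, 0 with only the groups compared and 0 to 14 with 1 library left out. In si-CTL cells it was 26 at an adjusted p below 0.05, all lower, where the median of all genes was itself -0.12. The share of all genes at that threshold was not counted. After median of ratios scaling the lowest adjusted p of a member in that comparison was 0.075 (limma). The siRNA effect at day 4 without rescue (23) was 2 with only the groups compared and 13 to 33 with 1 library left out, and with rescue (3) it was 7 at an adjusted p below 0.05 and 5 with a filter at 1.5. The interaction of siRNA and rescue (0) was 3 at an adjusted p below 0.05 and 0 to 1 with 1 library left out, the 1 being without rescued si-CTL replicate 1. The cause of these changes was not tested, apart from fewer libraries in the fits of only the groups compared and in those with 1 left out. The 5 remaining counts of members and both counts of listed regulators stayed within 1.5 times of their value under every alternative run.

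Libraries with the same replicate number did not deviate together, which does not show how the replicates were made. With the replicate block 32 members passed at day 0 in place of 34, 49 between days in si-CTL cells in place of 50, and 29 in the interaction with day in place of 32. Among 73 differences of named members, from 33 genes, none changed direction under any alternative. The replicate block took 1 call (Eif3a in the interaction), median of ratios scaling 1, the length adjustment 1 of 62, no filter 3 and the fit of only the groups compared 5, while 0.1 or 2 added to the TPM and the filter at 1.5 took none. Leaving out 1 library took 25 of 492, on Eif3a (9), Eif4e3 (7), Eif5b (5), Eef1a1 (2) and Eif4h (2).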

Other observations

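Eif4e1b, the oocyte form of the cap-binding protein, lay below the level for testing and has values only. It was at 0.673 ± 0.157 TPM (SD, n = 3) in si-CTL cells and 0.279 ± 0.118 TPM in si-Rsl24d1 cells at day 0, and at 0.691 ± 0.262 and 0.575 ± 0.189 TPM in the same cells with rescue. At day 4 its 4 group means were between 0.0142 and 0.124 TPM. Eef1akmt3 stayed at 0.0556 to 0.186 TPM as a group mean. Eif2c5, which the annotation lists as a lincRNA and not as an initiation factor despite its symbol, was at 0 in all 3 si-CTL libraries at day 0 and had group means of at most 0.108 TPM elsewhere.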
